A study of Mus musculus with 12 samples.

Results

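The GABA-A receptor is a chloride channel that the transmitter GABA opens, built from 5 subunits of several classes. Described here are the genes of 4 of its subunits, Gabra2, Gabra3, Gabrb2 and Gabrg1, together with Slc12a2, which encodes NKCC1, the cotransporter that loads chloride into sensory neurons. They were chosen by symbol, through the Ensembl identifier of each row, and all 5 were listed among the 13178 genes of the AAV table and the 21650 genes of the ribose table. The libraries came from L4-6 dorsal root ganglion neurons of C57BL/6J mice aged 8 weeks. All mice had a spinal cord injury (SCI) 72 h before collection. Markers of satellite glia and Schwann cells were present in every library, so the RNA was not of neurons alone. In the AAV experiment, 3 libraries carried AAV-GFP (green fluorescent protein) and 3 carried AAV-Tkt, labelled AAV-TKT in the samples, after viral injection into the sciatic nerve for 4 weeks. In the ribose experiment, 3 Vehicle libraries were set against 3 libraries of mice given 10% ribose. The promoter of the virus is not given in the sources used here, nor is the route of ribose. No group without injury was analysed here, so injury itself is not compared.

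Dorsal root ganglion neurons carry touch, position, pain and itch signals from the body to the spinal cord. Because NKCC1 keeps chloride high inside these neurons, GABA depolarizes them, and at their central endings this gives presynaptic inhibition. Most mature central neurons instead export chloride through KCC2, encoded by Slc12a5, and are hyperpolarized by GABA. Alpha subunits take part in the GABA site and set much of the response to benzodiazepines, beta subunits form the other side of the GABA site, and gamma subunits anchor the receptor at synapses.

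Of the members, Gabrg1 (gene span 70751047 to 70842617) and Gabra2 (70957597 to 71095849) lie next to each other in a receptor gene cluster on the minus strand of chromosome 5, GRCm38. The 250 bases before the RefSeq start of each are printed with every CG in capitals, because these neighbours differed in spread in the ribose table. The highest library there was 1.79 times the lowest for Gabra2 and 6.52 times for Gabrg1. They did not differ so in the AAV table, where Gabra2 lay between 10.37 and 12.93 FPKM and Gabrg1 between 12.35 and 15.21. Any part of the letters in the spread was not tested. The Gabra2 window is chr5:71095850-71096099 and the Gabrg1 window chr5:70842618-70842867, both minus strand, from the RefSeq table for GRCm38.p6.
Gabra2: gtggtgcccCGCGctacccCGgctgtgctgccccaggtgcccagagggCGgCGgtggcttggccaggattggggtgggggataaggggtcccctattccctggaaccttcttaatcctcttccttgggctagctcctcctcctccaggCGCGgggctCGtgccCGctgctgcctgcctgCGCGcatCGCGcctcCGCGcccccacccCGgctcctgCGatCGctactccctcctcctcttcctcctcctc
Gabrg1: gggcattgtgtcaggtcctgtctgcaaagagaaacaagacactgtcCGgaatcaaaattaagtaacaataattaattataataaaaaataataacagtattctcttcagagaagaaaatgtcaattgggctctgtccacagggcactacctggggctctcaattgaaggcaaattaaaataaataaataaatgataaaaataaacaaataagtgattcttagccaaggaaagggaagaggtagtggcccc
The Gabra2 window held 18 CG dinucleotides at 70.0% G and C, and the Gabrg1 window held 1 at 35.6%. Across 32851 such windows the median was 6 CG and 52.4% G and C. 78.3% of windows held fewer CG than Gabra2, and 7.87% held fewer than Gabrg1. Neither window held TATAAA on either strand, which 12.4% of all windows did. Of the 5 members, 4 were matched in that table. Both listed windows of Gabra3, on chromosome X, held 0 CG, and the 3 of Gabrb2, on chromosome 11, held 8, 8 and 4. These are properties of the letters and no binding or methylation was measured.

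Tkt, the targeted enzyme, lay between 98.1 and 106.5 FPKM in AAV-GFP and between 222.6 and 261.9 in AAV-TKT. FPKM is a fragment count divided by transcript length and by library size, so that genes within a table can be ranked by level. Tables were not compared with each other in level. All 10 pan-neuronal markers were listed in both tables, and markers of satellite glia and Schwann cells were present in every library. Of 8 markers of central inhibitory neurons, 0 were listed in the AAV table, and their summed level in the ribose table was 2.199 to 9.06 FPKM. In such mixed tissue, fewer cells of a type and less RNA per cell cannot be told apart. Vehicle replicate 2 and Ribose replicate 2 stood apart in neuron-type markers. All 12 markers of large-diameter neurons were lower in them than the mean of the other replicates of their groups, and 14 of 15 markers of non-peptidergic nociceptors were higher in both. Of 10 markers of peptidergic nociceptors, 7 were higher in both and 1 was lower in both. Of all 13804 genes tested, 4364 were lower in both and 4764 higher in both. AAV-TKT replicate 2 had the lowest summed satellite glia markers of its table. Summed neutrophil markers were 97.2 to 262.6 FPKM in AAV-GFP and 20.1 to 32.1 FPKM in AAV-TKT, ranges that did not meet. Nothing in the labels says that replicates came from separate animals, so p-values may measure only the spread between these samples.

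None of the 5 members passed the test in either experiment. In limma over all genes, 0 of 5 passed an adjusted p of 0.05 in AAV-TKT, where 0.0152% of 13178 genes did, and 0 of 5 passed in Ribose, where 0.00724% of 13804 did. With so few calls anywhere, these counts say little about the members. At an unadjusted limma p under 0.05 the counts were also 0 of 5 and 0 of 5, beside 10.6% and 4.79% of all genes. The median log2 difference of the members was 0.06 in AAV-TKT, with 3 positive and 2 negative, and 0.11 in Ribose, with the same split, beside medians over all genes of 0.01 and -0.02.

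**Figure D1:**
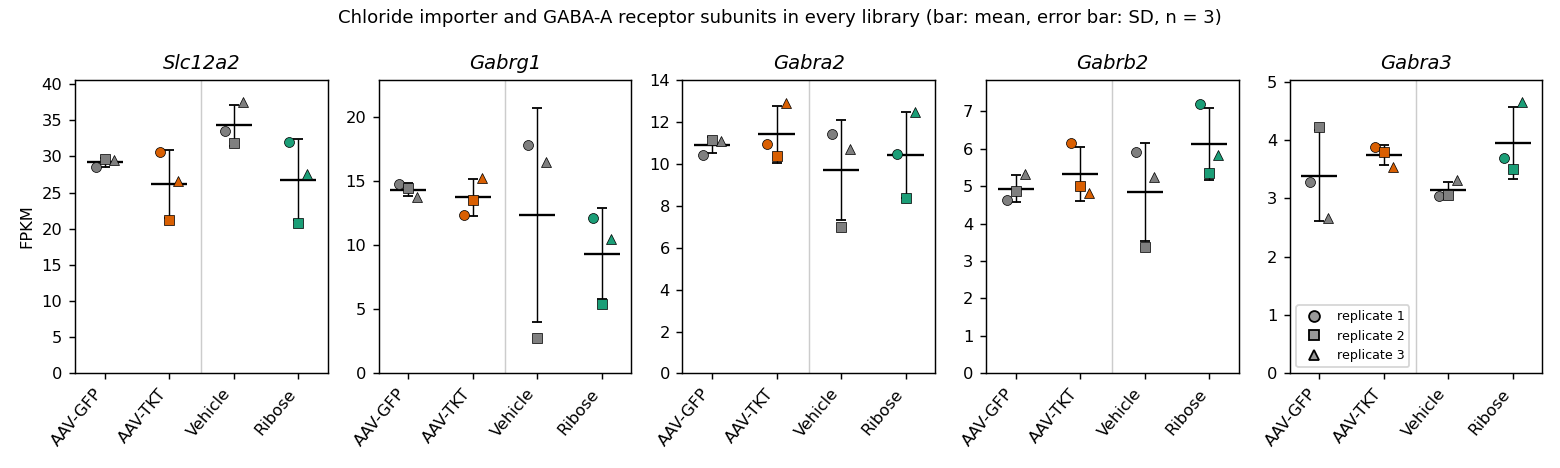
FPKM of Slc12a2, Gabrg1, Gabra2, Gabrb2 and Gabra3 in each of the 12 libraries (points, shaped by replicate number), with the mean and SD of each group of 3; the grey line separates the tables, whose levels are not compared. Gabrg1 is at 2.73 FPKM in Vehicle replicate 2 and 5.38 in Ribose replicate 2, against highest values of 17.82 in Vehicle and 12.13 in Ribose. Within the AAV table it lies between 12.35 and 15.2.

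Slc12a2, the chloride importer, was the most abundant member in every group. It lies on the plus strand of chromosome 18 (57878678 to 57946821). Its level was 28.5, 29.7 and 29.4 FPKM in AAV-GFP replicates 1 to 3, and 30.6, 21.3 and 26.6 FPKM in AAV-TKT. The AAV-GFP libraries lay close together, and the AAV-TKT libraries lay on both sides of them. The log2(FPKM + 1) difference was -0.17 (SE 0.123, 95% interval -0.46 to 0.12, limma adjusted p = 0.627; exact permutation p = 0.4, n = 3 each). Without AAV-TKT replicate 2 it was -0.03, and without AAV-TKT replicate 1 it was -0.28 (limma adjusted p = 0.515).

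In the ribose experiment Slc12a2 was at 33.55, 31.8 and 37.5 FPKM in Vehicle and 32.0, 20.8 and 27.5 FPKM in Ribose. The groups overlapped only through Ribose replicate 1, which lay just above Vehicle replicate 2. The difference was -0.36 (SE 0.171, 95% interval -0.76 to 0.04, limma unadjusted p = 0.0697, adjusted p = 1; exact permutation p = 0.2, n = 3 each). That interval holds no change as well as a fall of 0.76 on the log2 scale. Of all genes tested, 6.56% had a smaller unadjusted p. Without Ribose replicate 2 the difference was -0.20, and without both replicates numbered 2 it was -0.25 (limma adjusted p = 0.799).

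Markers of satellite glia, the cells that wrap the neuron bodies, were low in the libraries where Slc12a2 was lowest. The summed level of their 10 markers, all listed, was 1739, 1473 and 1546 FPKM in AAV-GFP and 1619, 1095 and 1477 in AAV-TKT. In the ribose table it was 1618, 1080 and 2063 FPKM in Vehicle and 1396, 653 and 1223 in Ribose. The lowest library was AAV-TKT replicate 2 in the one table and Ribose replicate 2 in the other, for both the markers and Slc12a2. This was not particular to satellite glia. Summed Schwann cell, fibroblast, endothelial, macrophage, neutrophil and red cell markers were also lowest of their table in Ribose replicate 2. In AAV-TKT replicate 2 the fibroblast (73.6 FPKM) and red cell (77.3 FPKM) sums were lowest, as was the 1 endothelial marker listed (0.728 FPKM). Macrophage and neutrophil sums were not lowest there. The Schwann cell sums of that table differed little, from 662.1 to 703.9 FPKM, with AAV-TKT replicate 2 highest. A sum follows its most abundant genes. Schwann cell markers were also weighted equally, as the mean of log2(FPKM + 1) after centring each gene. AAV-TKT replicate 2 was then lowest, at -0.386, with the other libraries between -0.052 and 0.258. The satellite glia list had a median log2 difference of -0.33 in AAV-TKT, with 7 of 10 negative, and -0.68 in Ribose, with 10 of 10 negative, and 0 called by limma in either. The part of satellite glia, or of the other cells, in the level of Slc12a2 was not tested.

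Gabrg1, the gamma-1 subunit, varied more than the other members in the ribose table and less than them in the AAV table, by the ratio of the highest to the lowest library. In the AAV experiment it was at 14.8, 14.4 and 13.7 FPKM in AAV-GFP and 12.35, 13.5 and 15.2 in AAV-TKT. The AAV-TKT values lay on both sides of the AAV-GFP range, and the log2 difference was -0.06 (SE 0.0889, 95% interval -0.27 to 0.15, limma adjusted p = 0.812; exact permutation p = 0.6, n = 3 each). In the ribose experiment it was at 17.8, 2.73 and 16.4 FPKM in Vehicle and 12.1, 5.38 and 10.5 in Ribose. Its highest value there was 6.52 times its lowest, against 1.23 times in the AAV table.

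Both low values of Gabrg1 were the replicates numbered 2, and the sign of the difference depended on which library was left out. The difference between Ribose and Vehicle was -0.12 (SE 0.624, 95% interval -1.58 to 1.34, limma adjusted p = 1; exact permutation p = 1, n = 3 each), an interval that spans large differences in either direction. Without Vehicle replicate 2 it was -0.88 (limma unadjusted p = 0.0307, adjusted p = 0.855), and without Ribose replicate 2 it was 0.20. Without Vehicle replicate 1 or 3 it was 0.29 or 0.24, and without Ribose replicate 1 or 3 it was -0.32 or -0.23. With both replicates numbered 2 left out, an alternative chosen after the data were seen, both Ribose libraries lay below both Vehicle libraries, at -0.56 (SE 0.171, limma unadjusted p = 0.0173, adjusted p = 0.616).

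Markers of neuron types and of glia moved with Gabrg1 in those libraries. The 12 markers of large-diameter neurons, which serve touch and position sense, summed to 999, 483 and 1251 FPKM in Vehicle and to 903, 624 and 999 in Ribose. The 15 markers of non-peptidergic nociceptors, small pain and itch neurons, summed to 651, 1383 and 461 FPKM in Vehicle and to 712, 1066 and 502 in Ribose. The first list was lowest, and the second highest, in the replicate numbered 2 of each group. Summed markers of peptidergic nociceptors were also highest there, at 2516 FPKM in Vehicle and 2743 in Ribose. Relative to replicates 1 and 3 of its group, Gabrg1 was at -2.28 in Vehicle replicate 2 and -0.94 in Ribose replicate 2 on the log2(FPKM + 1) scale. Of all genes tested, 1.46% were as low in both, that is, at or below -0.94. Satellite glia markers were low in the same libraries, and in AAV-TKT replicate 2, the lowest of its table for those markers, Gabrg1 was at 13.5 FPKM, inside the range of the others. What part the mix of neurons or glia had in Gabrg1 was not tested.

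**Figure D2:**
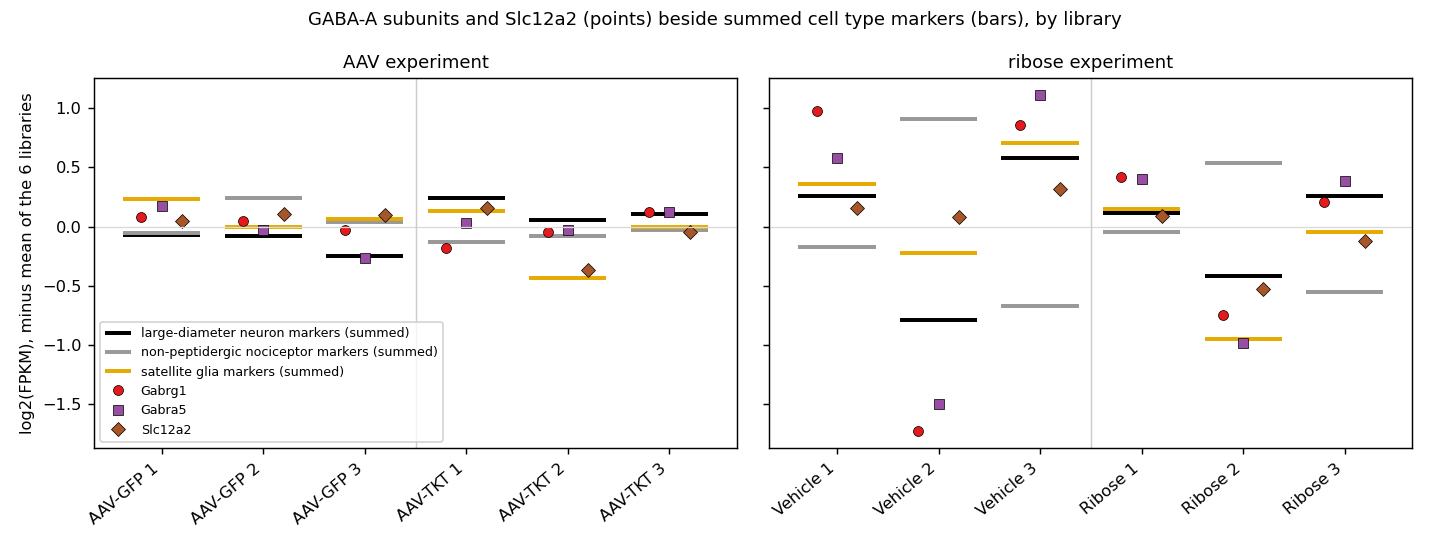
Log2 FPKM of Gabrg1, Gabra5 and Slc12a2 (points), and of summed markers of large-diameter neurons, non-peptidergic nociceptors and satellite glia (horizontal bars), per library, each minus its mean over the 6 libraries of a table. In Vehicle replicate 2 and Ribose replicate 2, Gabrg1 and Gabra5 are low together with the large-diameter markers (483 and 624 FPKM). Satellite glia markers are low there too (1080 and 653 FPKM), and the non-peptidergic markers are high (1383 and 1066 FPKM).

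Gabra2, the alpha-2 subunit, was at 10.4, 11.2 and 11.1 FPKM in AAV-GFP and 10.9, 10.4 and 12.9 in AAV-TKT, with AAV-TKT on both sides of AAV-GFP. The log2 difference was 0.06 (SE 0.0943, 95% interval -0.16 to 0.28, limma adjusted p = 0.846; exact permutation p = 0.9, n = 3 each). In Vehicle it was at 11.4, 6.98 and 10.7 FPKM and in Ribose at 10.5, 8.38 and 12.5, with the replicate numbered 2 lowest in both groups. The difference was 0.11 (SE 0.228, 95% interval -0.43 to 0.64, limma adjusted p = 1; exact permutation p = 0.7, n = 3 each). It was -0.09 without Vehicle replicate 2 and -0.02 without Ribose replicate 3.

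Gabra3, the alpha-3 subunit, was the least abundant member by the mean of each group. Its gene lies on the minus strand of chromosome X (72432681 to 72656848) and spans the microRNA genes Mir105 and Mir767 on the same strand and the processed pseudogene Gm14735 and the small nuclear RNA Gm23461 on the other. In AAV-GFP it was at 3.28, 4.23 and 2.67 FPKM and in AAV-TKT at 3.89, 3.79 and 3.55, inside the wider AAV-GFP range. The log2 difference was 0.12 (SE 0.141, 95% interval -0.21 to 0.45, limma adjusted p = 0.754; exact permutation p = 0.6, n = 3 each), and it was 0.002 without AAV-GFP replicate 3 and 0.26 without AAV-GFP replicate 2. In Vehicle it was at 3.04, 3.06 and 3.31 FPKM and in Ribose at 3.69, 3.51 and 4.65.

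Every Ribose library lay above every Vehicle library for Gabra3. Among all genes tested in that experiment, 4.28% were separated in this direction. Counting both directions, 1 of 5 members was separated in Ribose and 0 of 5 in AAV-TKT, beside 9.63% and 18.5% of all genes. The difference was 0.25 (SE 0.198, 95% interval -0.21 to 0.72, limma adjusted p = 1). The exact permutation p of 0.1 is the smallest that 3 libraries against 3 can give.

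Gabrb2, the beta-2 subunit, on the plus strand of chromosome 11 (42419757 to 42629028), was at 4.62, 4.86 and 5.32 FPKM in AAV-GFP and 6.15, 5.00 and 4.81 FPKM in AAV-TKT. The groups overlapped, with AAV-TKT replicate 1 alone above the AAV-GFP range. The log2 difference was 0.09 (SE 0.110, 95% interval -0.17 to 0.34, limma adjusted p = 0.783; exact permutation p = 0.6, n = 3 each), and -0.005 without AAV-TKT replicate 1. In Vehicle it was at 5.91, 3.37 and 5.25 FPKM and in Ribose at 7.20, 5.35 and 5.82. Vehicle replicate 2 was the lowest of the 6, and the difference was 0.30 (SE 0.232, 95% interval -0.24 to 0.85, limma adjusted p = 1; exact permutation p = 0.3, n = 3 each). Without that library it was 0.11.

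The effects of AAV-TKT and ribose on the members were also set against each other. The effect of AAV-TKT minus the effect of ribose was 0.19 for Slc12a2 (95% interval -0.29 to 0.68), 0.05 for Gabrg1 (-1.48 to 1.59), -0.05 for Gabra2 (-0.61 to 0.51), -0.13 for Gabra3 (-0.61 to 0.36) and -0.22 for Gabrb2 (-0.78 to 0.34). In limma over 12853 genes in both tables, 0 of 5 members passed, with adjusted p from 0.928 to 0.996, beside 0.00778% of all genes. At an unadjusted p under 0.05, where 6.85% of all genes lay, the count was also 0 of 5. These intervals leave room for unequal effects of the sizes they span.

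**Figure D3:**
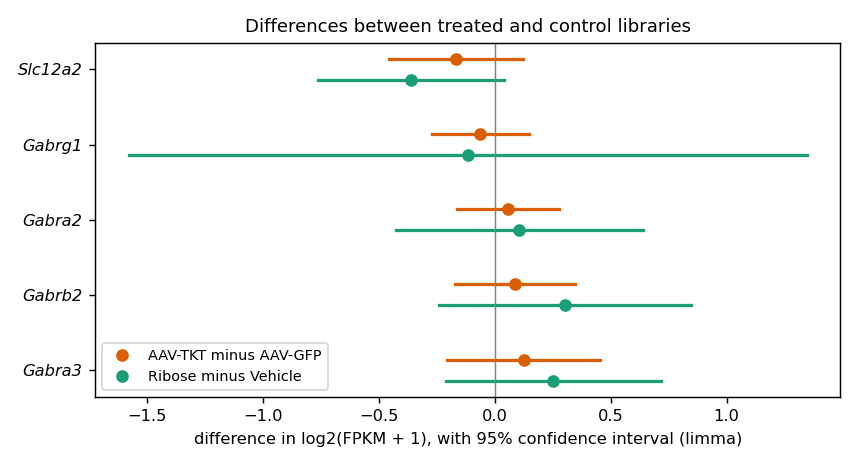
Difference in log2(FPKM + 1) between treated and control libraries for each member, with the 95% confidence interval from limma, in the AAV experiment (orange) and the ribose experiment (green). Every interval includes 0, and that of Gabrg1 under ribose runs from -1.58 to 1.34.

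In order of level, Slc12a2 was above Gabrg1, Gabra2, Gabrb2 and Gabra3 in AAV-GFP, with means of 29.2 ± 0.642, 14.3 ± 0.527, 10.9 ± 0.394, 4.93 ± 0.356 and 3.39 ± 0.784 FPKM (SD, n = 3). No neighbours in that order overlapped. In AAV-TKT the means were 26.15 ± 4.68, 13.7 ± 1.43, 11.4 ± 1.35, 5.32 ± 0.722 and 3.74 ± 0.175 FPKM (SD, n = 3), and the libraries of Gabrg1 and Gabra2 overlapped. In Vehicle the means stood in the same order, with 34.3 ± 2.88, 12.3 ± 8.34, 9.71 ± 2.39, 4.84 ± 1.315 and 3.14 ± 0.152 FPKM (SD, n = 3). The Vehicle libraries of Gabrg1 overlapped with those of Gabra2. Gabrg1 in Vehicle replicate 2, at 2.733 FPKM, lay below every Vehicle library of Gabra2, Gabrb2 (lowest 3.373) and Gabra3 (lowest 3.044). In Ribose, Gabra2 (10.4 ± 2.05) and Gabrg1 (9.33 ± 3.52) stood in the opposite order within their spread, between Slc12a2 (26.8 ± 5.60) above and Gabrb2 (6.12 ± 0.966) and Gabra3 (3.95 ± 0.611) below (FPKM, SD, n = 3). Gabrg1 and Gabrb2 overlapped there as well.

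Of 15 other GABA-A subunits, 5 were listed and tested in AAV-TKT and 0 passed, with a median log2 difference of 0.01. Their log2 differences had adjusted p-values from 0.472 to 0.978 in limma. Gabra5, the alpha-5 subunit, lay between 3.15 and 4.27 FPKM in the AAV libraries, with a difference of 0.06, and Gabrb1, the beta-1 subunit, between 1.03 and 1.68 FPKM, with a difference of -0.03.

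Of the 15, the ribose experiment listed 13, of which 6 reached a mean of 1 FPKM and 0 passed, with a median of 0.01. Gabra5 was at 6.94, 1.64 and 10.0 FPKM in Vehicle and 6.14, 2.34 and 6.04 in Ribose, so its lowest libraries were those of Gabrg1. Relative to replicates 1 and 3 it was at -1.82 and -1.09 (log2), and 0.804% of genes tested were as low in both. The Gabra5 gene overlaps another gene on the opposite strand, and whether the authors counted by strand is not given in the sources used here. Gabra4 was at 1.29, 0.230 and 0.383 FPKM in Vehicle and 1.11, 2.66 and 2.40 in Ribose, with Ribose replicate 1 inside the Vehicle range. Its mean was 0.634 FPKM in Vehicle and 2.06 in Ribose, so it reached the tested genes only through the Ribose libraries, and its log2 difference of 0.92 (limma adjusted p = 1) is given as a description. The 8 central inhibitory neuron markers, summed, were at 7.40, 2.199 and 2.26 FPKM in Vehicle and 6.70, 6.24 and 9.06 in Ribose, and their part in the level of Gabra4 was not tested. Gabra4 also overlaps Gabrb1 on the opposite strand. Gabrb1 lay between 0.855 and 2.05 FPKM in the ribose table, with a mean of 1.10 in Vehicle and 1.56 in Ribose, and the groups overlapped.

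The remaining 7 listed subunits, Gabra6, Gabrd, Gabrg3, Gabrp, Gabrr1, Gabrr2 and Gabrr3, had means under 1 FPKM and were not tested. Gabra6 was listed at 0 in all 3 Vehicle libraries and at 0.2135, 0.146 and 0.413 FPKM in Ribose. Gabrr1 was at 0.473, 0.206 and 0.150 FPKM in Vehicle and 1.09, 0.4835 and 0.7965 in Ribose. Both were higher in every Ribose library, as were 5.91% of genes under 1 FPKM, and Gabrr3 was lower in every one, as were 5.57%. The lower relative depth of the Ribose libraries (0.770 to 0.896, against 0.994 to 1.34 in Vehicle) leaves these low values imprecise.

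Potassium-chloride cotransporters of the same Slc12 family carry chloride out of the cell. Slc12a7 (KCC4) was at 5.18 ± 0.772 and 4.415 ± 0.677 FPKM in the AAV experiment and at 6.36 ± 1.3 and 5.96 ± 1.797 in the ribose experiment. Slc12a4 (KCC1) was at 3.26 ± 0.647 and 2.89 ± 1.315 FPKM and at 3.695 ± 0.774 and 2.93 ± 1.085 FPKM, with its lowest values in AAV-TKT replicate 2 (1.41) and Ribose replicate 2 (1.73), the libraries lowest for Slc12a2.

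Slc12a5 (KCC2), the exporter of central neurons, was at 0.153, 0.241 and 0.337 FPKM in Vehicle and 1.26, 1.38 and 1.96 in Ribose. Every Ribose library was above every Vehicle library, as for 5.91% of genes under 1 FPKM, and the lower depth of the Ribose libraries limits the precision here too. The part of the central inhibitory neuron markers, whose sums are given beside Gabra4, in the level of Slc12a5 was not tested. Its mean over the 6 libraries was under 1 FPKM, so it was outside the tested genes. With no filter on low values the log2(FPKM + 1) difference was 1.02 (SE 0.202, limma unadjusted p = 0.00135, adjusted p = 0.593). Slc12a5 was not among the genes of the AAV table. Slc12a3 and Slc12a1, kidney cotransporters, were also under 1 FPKM on average in the ribose table, and Slc12a3 was at 0.202, 0.287 and 0.692 FPKM in Vehicle and 0.449, 1.58 and 1.31 in Ribose, with overlap.

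The kinases that switch these transporters did not pass either. Of 16 genes on the list of chloride transport and its kinases, 13 were tested in each experiment and 0 passed. Their median log2 difference was 0.02 in AAV-TKT (8 positive, 5 negative) and 0.02 in Ribose (7 positive, 6 negative), and 0 of 13 were separated between groups in either, beside 18.5% and 9.63% of all genes. Wnk1, a chloride-sensing kinase, was at 163 ± 6.35 and 162 ± 18.7 FPKM in the AAV experiment and 193 ± 18.2 and 215 ± 48.2 FPKM in the ribose experiment (SD, n = 3). Stk39, which encodes SPAK, the kinase that phosphorylates NKCC1, was at 75.3 ± 9.11 and 79.4 ± 4.50 FPKM and at 65.7 ± 12.0 and 61.7 ± 7.93 FPKM. Its relative Oxsr1 was at 17.9 ± 0.756 and 17.8 ± 0.691 FPKM and at 20.3 ± 1.385 and 19.15 ± 1.059 FPKM.

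Log2 differences in AAV-TKT and in Ribose were 0.18 and 0.09 for Wnk2, 0.02 and 0.52 for Wnk3, and 0.10 and 0.03 for Wnk4. The value of Wnk3 in Ribose rested on replicate 3, at 8.30 FPKM against 3.6 and 3.15. Among chloride channels and exchangers, differences were 0.00 and 0.02 for Clcn3, 0.16 and -0.04 for Clcn2, 0.20 and 0.40 for Ano1, the calcium-activated chloride channel of nociceptors, and -0.18 and -0.03 for the anion exchanger Slc4a3. Adjusted p-values of the list in AAV-TKT were 0.501 or higher.

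Scaffold and trafficking genes of the receptor did not pass the test in either experiment. Of 17 on the list, 16 were tested, 0 passed, 14 were positive, and the median log2 difference was 0.09. Of the 10 pan-neuronal markers, 9 were positive in the same comparison, with a median of 0.21 and 0 called, and their part in the scaffold genes was not tested. In Ribose, 16 were tested, 0 passed, 4 were positive, and the median was -0.07. Gphn, which encodes gephyrin, the scaffold of inhibitory synapses, was at 15.3, 15.3 and 13.2 FPKM in AAV-GFP and 18.0, 17.7 and 15.5 in AAV-TKT. The groups were just separated, with a log2 difference of 0.21 (SE 0.0926, limma adjusted p = 0.472). Separated upward as well were Gabarapl1, of the GABA-A receptor-associated protein family that also serves autophagy (0.22, adjusted p = 0.418), and Lhfpl4, which brings receptors to synapses (0.17, adjusted p = 0.485). In all, 3 of 16 were separated upward, beside 11.3% of all genes.

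In the ribose experiment the same 3 genes overlapped between groups, at 0.38 for Gphn, -0.09 for Gabarapl1 and -0.14 for Lhfpl4. Gphn was at 25.6, 13.0 and 29.3 FPKM in Ribose, again with replicate 2 lowest.

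Genes that followed each member most closely over the 6 libraries of a table, in both tables, were picked among 11714 protein-coding genes by the lower of the 2 Pearson correlations on log2(FPKM + 1). For Gabrg1 these were Arhgap29 (r = 0.947 and 0.950 in the AAV and ribose tables), and Eci2, an isomerase of fatty acid oxidation (0.943 and 0.955). For Slc12a2 they were Col28a1, a collagen (0.980 and 0.952), and Fads2, a fatty acid desaturase (0.950 and 0.949). Slc12a2 had 146 genes at 0.8 or more in both tables, against 6 for Gabra2, 19 for Gabra3, 9 for Gabrb2 and 7 for Gabrg1. Gabra2 went with Nxph1, a neurexin ligand (0.891 and 0.870), and Rbms2 (0.845 and 0.965). Gabra3 went with the vesicle membrane protein gene Scamp1 (0.909 and 0.980) and with Jazf1 (0.918 and 0.904). Gabrb2 went with the synaptic scaffold gene Dlg3 (0.907 and 0.912) and the kinesin gene Kif21b (0.887 and 0.926). These are the highest of many correlations over few libraries that share their composition and depth, and are a description.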

How the data were processed

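RNA of 12 libraries in 4 groups of 3 was measured. Per the labels' protocols, polyA RNA went through a column extraction and a strand-keeping library kit. Per the submitters' processing notes, bcl2fastq 2.20, FastQC, Trim Galore and GRCm38 were used, while the sources used here do not name the aligner, counter or annotation. The authors deposited 1 table of FPKM values per experiment. The AAV table holds no gene averaging under 1 FPKM, which makes depth unknown there; in the ribose table relative depths came from ratios of values under 0.2 FPKM (largest residual 0.0172 on the natural log scale).

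Columns of the ribose table named as controls were taken as Vehicle, the control group of that experiment in the labels, by replicate number. Symbols came from GENCODE M21 for 13170 of 13178 and 21612 of 21650 genes. Groups were compared within each table on log2(FPKM + 1) with limma 3.58.1 in R 4.3.3 (intensity trend, Benjamini-Hochberg over all genes, threshold 0.05), after genes averaging under 1 FPKM were dropped; the fit was tested on simulated data. A two-sided exact permutation test over libraries (scipy 1.17.1) was added per member. The difference of effects was fitted over all 12 libraries. Alternatives were other pseudocounts (0.1, 0.5), filters (none, 5 FPKM) and scalings (quantile, equal totals, median of ratios), a block for replicate number, a robust prior, weights per library, protein-coding genes alone and each library left out; leaving out both ribose libraries numbered 2 was added after seeing the data.

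Named genes were the members, all measured genes of the subunit and chloride lists, up to 4 genes with the smallest p of each other GABA list, and for each member the 2 genes most correlated with it; some of these genes are not reported here. Members and lists were chosen with earlier results of these data known.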

Additional observations from a re-analysis of the deposited data

How the results depend on the processing

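Across 173 alternative values of the 10 member differences, 163 kept their sign, 10 reversed and 0 passed the threshold. Other filters, the robust prior, protein-coding genes alone and the replicate block cannot change the difference itself, only its SE or p. Signs kept under those settings were fixed in advance, so the 163 overstates stability. Gabra2 in Ribose with weights per library, counted as kept, was at 0.0. The cause of the reversals was not tested. In AAV-TKT, Gabra2 was at -0.008 with equal FPKM totals and Gabrg1 at 0.009 with weights per library. Over single left-out libraries, the AAV-TKT differences of Gabra2, Gabrb2 and Gabrg1 ranged from -0.03 to 0.117, from -0.005 to 0.144 and from -0.135 to 0.005, and the Ribose differences of Gabra2 and Gabrg1 from -0.093 to 0.241 and from -0.877 to 0.29. Reversed values of Gabrg1 in Ribose, 0.198 to 0.29, exceeded the size of its own difference of -0.117. Those of Slc12a2 kept their sign, from -0.284 to -0.032 in AAV-TKT and from -0.496 to -0.199 in Ribose. Gabra3 falls below a filter at 5 FPKM and has no value there. The count of members past the threshold was 0 in every setting of each comparison and of the difference between experiments. Calls over all genes were 2 in the AAV experiment (8 with protein-coding genes alone, 23 with weights per library, 41 without AAV-GFP replicate 2 and 0 with the replicate block), 1 in the ribose experiment (0 with protein-coding genes alone, 6 without both libraries numbered 2) and 1 for the difference (12 without both). Replicate numbers were shared between groups, and whether they pair the samples, or mark a shared batch, is not settled here. Same-numbered deviations correlated at 0.033, 0.071 and -0.014 in the AAV experiment and 0.042, 0.357 and 0.160 in the ribose experiment. Differently numbered ones lay between -0.104 and 0.080 in the AAV experiment and between -0.260 and 0.145 in the ribose experiment. Not every library correlated best with its own number. With the replicate block, calls went from 2 to 0 in the AAV experiment and stayed at 1 in the ribose experiment, and Slc12a2 in Ribose was at -0.362 (limma unadjusted p = 0.0366, adjusted p = 0.670). Gabrg1 in Ribose stayed at -0.117, with an SE of 0.299 in place of 0.624 (limma adjusted p = 0.95). Depth is unknown in the AAV table, and 3 libraries a group limit all intervals.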

Other observations

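The rest of the GABA system was measured beside the members. GABA-B receptors, which act through G proteins, included the subunit Gabbr2, which lay between 46.6 and 53.3 FPKM over the AAV libraries and between 47.2 and 57.7 FPKM over the others. Of 6 genes on that list 5 were tested in each experiment and 0 passed. Kctd12, an auxiliary subunit of that receptor, was at 2.08, 1.54 and 2.27 FPKM in AAV-GFP and 1.15, 1.015 and 1.14 in AAV-TKT, so every AAV-TKT library was lower, as were 7.20% of all genes. The log2 difference was -0.49 (SE 0.140, limma unadjusted p = 0.00918, adjusted p = 0.378). In the ribose experiment it was -0.09, and Vehicle replicate 2 (1.27 FPKM) and Ribose replicate 2 (1.063 FPKM) were lowest. Kctd16 was at -0.13 in AAV-TKT and 0.24 in Ribose, and Gabbr2 and Kctd8 were at 0.04 and -0.04 in Ribose. Of 10 genes for GABA synthesis, uptake and breakdown, 4 were tested in the AAV experiment and 3 in the ribose experiment, and 0 passed. Abat, the transaminase that breaks GABA down, was at 13.6, 14.6 and 13.9 FPKM in AAV-GFP and 12.5, 11.2 and 13.6 in AAV-TKT (difference -0.16, adjusted p = 0.518). Aldh5a1, the next enzyme of breakdown, was at 0.15 (adjusted p = 0.596) and the uptake carrier Slc6a11 at 0.03 in AAV-TKT, and Aldh9a1 was at -0.19 in Ribose (adjusted p = 1). These adjusted p-values are from limma over all genes. The synthesizing enzymes Gad1 and Gad2 and the vesicular carrier Slc32a1 were under 1 FPKM on average in the ribose table, with highest single values of 1.49, 0.629 and 1.91 FPKM.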
